A study of Mus musculus with 16 samples.

Results

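The comparison described here is that of genotype in the absence of alcohol, 3xTg-AD against WT, in the prefrontal cortex (PFC) of male mice. It rests on 8 of the 16 mice of the study, 4 3xTg-AD mice (numbered 12, 13, 14 and 21) and 4 WT mice (26, 27, 28 and 36). The mice were grouped by their labels, and the comparison was chosen with earlier results of these data known. All 8 were 22 weeks old. The 3xTg-AD mouse carries transgenes for mutant human amyloid precursor protein and mutant human tau, both driven by the neuronal Thy1 promoter, together with 1 more altered gene, and the line was kept on a B6;129 background. The WT mice carry the strain label B6;129, and the study calls its WT controls littermates. By the study's methods, both groups were injected with pyrazole, an inhibitor of alcohol dehydrogenase, in saline, sat in chambers that delivered air, and had been through the Morris water maze before the tissue was taken. The other 8 mice of the study were exposed to alcohol vapor. Single nuclei were sequenced, and raw counts of unique molecular identifiers (UMIs, each 1 captured transcript) were summed over all nuclei of a mouse to give 1 profile per mouse. Levels are given as CPM, which are counts scaled to the same total in every mouse, and differences as log2 fold changes, 3xTg-AD minus WT, from edgeR's quasi-likelihood test, with a gene called where its Benjamini-Hochberg adjusted p was at most 0.05. The p-values of this test measure the spread between mice within groups, estimated in 1 fit over all 16 mice of the study. In sums over a tissue, fewer cells of a type and less RNA per cell cannot be told apart.

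As background, the amyloid precursor protein is cut by secretases to release amyloid-beta peptides, and tau binds microtubules and becomes hyperphosphorylated in tangles. In the 3xTg-AD line both lesions build up with age, amyloid first, and the cortex is one of the regions in which they appear. The transgenes and any other heritable difference between the groups cannot be told apart in this design.

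The 8 mice gave 52824 nuclei, between 4962 and 7227 per mouse, and between 9622031 and 14004659 UMIs per mouse. Mean UMIs per nucleus were 1770 ± 232 in 3xTg-AD and 1903 ± 237 in WT mice (SD, n = 4; exact permutation test over the mice, two-sided p = 0.486), and mean genes per nucleus 1079 ± 57.2 and 1116 ± 119 (exact permutation p = 0.657), where 4 against 4 mice cannot go below 0.0286. A total of 362 barcode sequences occurred in more than 1 of the 8 mice. In 3 mice Gm42418, a transcript that overlaps ribosomal RNA, stood at 17914 CPM (3xTg-AD mouse 12), 29047 CPM (WT mouse 26) and 19430 CPM (WT mouse 27), against 3477 to 4249 CPM in the other 5. The number of calls was 73 with these 3 mice and 45 without them, and 34 of the 45 were among the 73. Leaving out 1 mouse at a time gave between 35 and 105 calls, the lowest without 3xTg-AD mouse 13 and the highest without WT mouse 28.

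Genes tied to the transgenes were looked at first. App, whose product is the amyloid precursor protein, measured 448, 503, 566 and 519 CPM in 3xTg-AD mice 12, 13, 14 and 21, and 568, 431, 525 and 552 CPM in WT mice 26, 27, 28 and 36. The groups overlapped, and the log2 difference was -0.03 ± 0.12 (SE; adjusted p = 0.978). Mapt, the gene for tau, measured 295, 268, 312 and 302 CPM against 302, 285, 269 and 283 CPM, a log2 difference of 0.05 (adjusted p = 0.959). The rows for these genes hold mouse symbols, and no feature for the human transgenes was among those analysed here, so neither value measures the transgene separately. Thy1, whose promoter drives the transgenes and whose product is a neuronal surface glycoprotein, lay at 207, 303, 275 and 352 CPM against 229, 162, 213 and 252 CPM in WT mice, again with overlap (log2 difference 0.41, adjusted p = 0.449). None of the 3 genes passed the test, and they do not serve as a check of the labels.

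Across the 16767 genes tested, 73 were called (0.435%), 20 higher in 3xTg-AD mice (0.119%) and 53 lower (0.316%). The median log2 difference of all genes was 0.00. Of the 73, 60 are protein-coding and 57 differed by at least 1 on the log2 scale, the smallest absolute difference being 0.46. In 72 of them every 3xTg-AD mouse lay on the same side of every WT mouse, as did 4.04% of all genes tested, and the exception was Dnah6, which encodes a dynein heavy chain of the ciliary axoneme and read 0.774 CPM in WT mouse 27 against 6.49 to 8.66 CPM in the other WT mice. The called genes had counts in every mouse in 59 cases. A total of 17 had a mean under 5 CPM in both groups, so that their values rest on few transcripts.

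The most regular feature among the genes higher in 3xTg-AD mice was a stretch at the distal end of the X chromosome. It runs from Gemin8 to Mid1 (mm10, chrX:166170454-170005736, 3.84 Mb) and was delimited after its values had been seen. Its members are the 16 tested genes from Gemin8 to Mid1 in the order of their starts, and 2 more tested genes, G530011O06Rik and Gm15247, lie inside the span of Mid1. All 16 members read higher in 3xTg-AD mice, 10 of them called (62.5%, against 0.119% of all genes called higher), and these were 10 of the 20 higher calls. The median log2 difference over the 16 genes was 1.02, which is 2.03-fold, with a range from 0.39 to 1.52. With the 2 genes inside Mid1 counted in, 18 of 18 read higher and 10 were called (55.6%), with a median of 1.02 and a range from 0.21 to 1.52. None of the other 499 X-linked genes tested was called by edgeR, and their median was -0.02. The RNA counts do not measure how many copies of the stretch a mouse carries. Mid1, its last gene, crosses the boundary of the pseudoautosomal region, which the X and Y chromosomes share, in common laboratory strains.

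**Figure D1:**
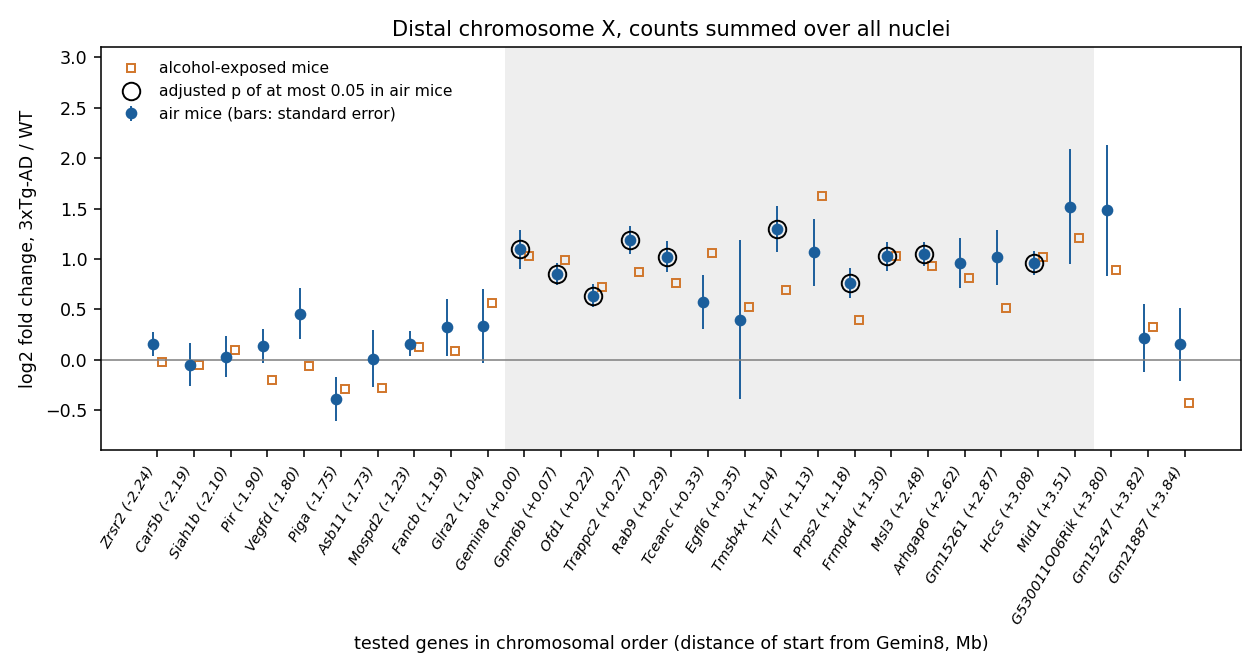
Log2 differences (3xTg-AD minus WT) of the genes tested on the distal X chromosome, in order along it, as filled circles with SE bars for air mice and as squares for alcohol mice, and with called genes ringed. The 16 genes from Gemin8 to Mid1 (shaded) lie above 0 in both, with medians of 1.02 and 0.90, and the 10 genes before Gemin8 lie between -0.39 and 0.46 in air mice.

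Tmsb4x, which encodes thymosin beta-4, the main binder of monomeric actin, was one of these genes. It measured 1823, 3344, 3496 and 3249 CPM in 3xTg-AD mice 12, 13, 14 and 21 and 925, 963, 1512 and 1461 CPM in WT mice 26, 27, 28 and 36. All 3xTg-AD mice lay above all WT mice, with mouse 12 the lowest of its group, and the log2 difference was 1.29 ± 0.23 (adjusted p = 0.0105). Gpm6b, a membrane glycoprotein of neurons and glia, measured 947, 913, 1005 and 968 CPM against 662, 468, 522 and 474 CPM. The 3xTg-AD mice were close together and all higher (log2 difference 0.85 ± 0.11, adjusted p = 0.00061). Frmpd4, a scaffold protein of dendritic spines also called Preso, measured 140, 104, 99.2 and 116 CPM against 67.5, 65.8, 48.5 and 44.1 CPM, with no overlap (log2 difference 1.03 ± 0.14, adjusted p = 0.00112).

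The remaining called members have varied roles. Msl3 encodes a chromatin-binding subunit of the MSL histone acetyltransferase complex and measured 33.1, 29.2, 28.7 and 34.2 CPM in 3xTg-AD and 18.5, 14.2, 14.5 and 13.3 CPM in WT mice (log2 difference 1.05, adjusted p = 9.02e-05). Hccs, the holocytochrome c synthase of mitochondria, measured 16.5, 17.5, 18.4 and 19.8 CPM against 8.27, 8.96, 9.37 and 10.6 CPM (log2 difference 0.96, adjusted p = 0.000256). Both genes separated the groups completely. Trappc2, a subunit of the TRAPP tether of vesicles, measured 50.9, 70.8, 78.3 and 74.5 CPM against 22.5, 27.9, 35.9 and 34.3 CPM (log2 difference 1.19, adjusted p = 0.000217). Rab9, a small GTPase of traffic from endosomes to the Golgi, measured 36.6, 46.1, 55.6 and 43.6 CPM against 19.4, 25.9, 22.4 and 22.1 CPM (log2 difference 1.02, adjusted p = 0.00267). Ofd1, a centriole protein, Gemin8, a member of the SMN complex that assembles spliceosomal particles, and Prps2, an enzyme that makes the nucleotide precursor phosphoribosyl pyrophosphate, rose by 0.64, 1.10 and 0.76 on the log2 scale (adjusted p = 0.0105, 0.012 and 0.0271). When 1 air mouse at a time was left out, Ofd1 was called in 7 of 8 fits, Gemin8 in 5 and Prps2 in 2.

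The members that did not pass the test also read higher in 3xTg-AD mice. Tlr7, a receptor for single-stranded RNA found in microglia and other immune cells, measured only 2.15, 1.59, 2.72 and 2.23 CPM against 1.62, 0.664, 1.15 and 0.681 CPM, with 3xTg-AD mouse 13 just below WT mouse 26 (log2 difference 1.06, adjusted p = 0.264). Arhgap6, a GTPase-activating protein, measured 50.9, 32.8, 23.4 and 26.4 CPM against 18.4, 17.6, 17.7 and 15.1 CPM, without overlap (log2 difference 0.96, adjusted p = 0.118). Mid1, a microtubule-associated ubiquitin ligase, had the largest estimate of the stretch, with a wide error, 1.52 ± 0.57 (adjusted p = 0.445). Its levels were 16.3, 25.0, 39.3 and 38.6 CPM against 5.11, 7.08, 24.8 and 4.90 CPM, so that WT mouse 28 alone reached into the 3xTg-AD range. Egfl6, at under 1.2 CPM in every mouse, was the only member with an unadjusted p above 0.05.

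The genes around the X-linked stretch were compared with it. The 10 tested genes on its centromeric side had a median log2 difference of 0.15, and none was called. Inside the span of Mid1, on the other strand, G530011O06Rik read 1.48 and Gm15247 0.21 higher on the log2 scale (adjusted p = 0.555 and 0.949), and reads from overlapping genes cannot be assigned with certainty. Beyond the end of Mid1 1 tested gene, Gm21887, remained, and it read 0.15 higher (adjusted p = 0.967), so that the telomeric side rests on this gene alone. When the chromosomes were divided into 16311 overlapping windows of 10 neighbouring tested genes, the 7 windows inside the stretch had median log2 differences of 0.94 to 1.02. Other windows were as extreme. A cluster of zinc finger genes on chromosome 2 (Gm14295 to Gm14325) had -1.16 in air and -0.54 to -0.47 in alcohol mice. Windows around the beta-globin and olfactory receptor genes on chromosome 7 had 1.15 in air and 1.18 in alcohol mice. The windows inside the stretch had 0.78 to 0.87 in alcohol mice. Reads can be shared between similar copies in both of these other families, and the part of such sharing was not tested. The number of called members was 6 when the 8 air mice were fitted alone and 12 in DESeq2, and every tested member stayed higher in each alternative fit.

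The promoters of 3 called members from this stretch are shown because their transcripts moved together, with the bases upstream of the annotated start taken from RefSeq (GRCm38.p6). The upper-case letters mark a match, on the strand shown, to the GC box GGGCGG in Tmsb4x (chrX:167209316-167209468, minus strand) and Msl3 (chrX:168673899-168674122, minus strand, where the second run holds 2 overlapping matches), and to the cyclic AMP response element TGACGTCA in Gpm6b (chrX:166238693-166238910, plus strand).
Tmsb4x: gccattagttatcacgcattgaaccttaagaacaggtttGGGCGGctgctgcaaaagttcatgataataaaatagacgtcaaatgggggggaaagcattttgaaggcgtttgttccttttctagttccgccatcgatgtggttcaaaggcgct
Gpm6b: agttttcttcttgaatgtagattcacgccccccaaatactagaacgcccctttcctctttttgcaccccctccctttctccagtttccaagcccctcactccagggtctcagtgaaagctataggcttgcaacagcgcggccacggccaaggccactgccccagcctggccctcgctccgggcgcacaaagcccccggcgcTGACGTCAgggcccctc
Msl3: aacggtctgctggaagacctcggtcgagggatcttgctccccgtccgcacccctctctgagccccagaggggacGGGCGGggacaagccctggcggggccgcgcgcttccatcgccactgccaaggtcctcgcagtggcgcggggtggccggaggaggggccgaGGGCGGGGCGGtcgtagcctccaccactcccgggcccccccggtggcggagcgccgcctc
The motifs were chosen after these sequences had been read, and both strands were searched in the 250 bases before each start. Of the 16 genes, 14 matched an entry, with 21 promoters between them. A GC box occurred in 10 of the 21, the letters CCAAT in 7 and the cyclic AMP response element in 1, while of all 32851 mouse promoters 32.7%, 33.8% and 1.55% hold them. A match describes letters in a window and is not a binding site.

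Outside the X-linked stretch 10 genes were higher in 3xTg-AD mice. Gm7324, a predicted protein-coding gene on chromosome 14 (chr14:43697828-43715378), had the smallest p of all. It measured 23.4, 31.5, 31.2 and 29.1 CPM in 3xTg-AD mice and 0.730, 1.22, 1.59 and 1.43 CPM in WT mice, a fold of 23 between the means (adjusted p = 1.19e-09). Cd59a, which blocks the membrane attack complex of complement on the cell's own surface, measured 11.9, 9.38, 13.2 and 13 CPM against 3.65, 3.54, 4.86 and 3.2 CPM, without overlap (log2 difference 1.64 ± 0.18, adjusted p = 9.02e-05). Sap130, a subunit of the Sin3 histone deacetylase complex, measured 69.7, 57.1, 55.1 and 58.4 CPM against 28.6, 30.4, 39.2 and 37.9 CPM, also without overlap (log2 difference 0.82 ± 0.12, adjusted p = 0.00178). Ankrd33b, an ankyrin repeat protein, and Zfp58, a zinc finger protein, were higher by 0.83 and 1.14 on the log2 scale, and Rdh13, a mitochondrial retinol dehydrogenase, by 1.01 (adjusted p = 0.0184, 0.00599 and 0.0475). Among the 8 fits that left out 1 air mouse, Zfp58 was called in 8, Ankrd33b in 4 and Rdh13 in 1.

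A chemokine receptor was listed in one genotype alone. Ccr1, a receptor of inflammatory chemokines carried by microglia and other myeloid cells, measured 1.72, 1.68, 2.88 and 2.23 CPM in 3xTg-AD mice and was listed at 0 in all 4 WT mice (adjusted p = 0.000827). In the table used a gene found in fewer than 5 nuclei of a mouse is listed at 0 there, so that a 0 covers low levels as well and no fold is given. Olfr545, an olfactory receptor gene, and Tescl, a tescalcin-like gene, were also listed at 0 in the WT mice and peaked at 1.17 and 1.27 CPM in the 3xTg-AD group, on at most 14 and 16 counts in a mouse. In the alcohol mice Olfr545 measured 0.533 to 0.749 CPM in all 4 WT mice (log2 difference 0.40, adjusted p = 0.698), and Tescl was above 0 in 2 of them (adjusted p = 0.189). Tescl was called in 0 of the 8 fits that left out 1 air mouse, and Olfr545 and Ccr1 in all 8. These fits use the same listed values of 0, so they cannot test the limit of 5 nuclei and add no support.

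The 53 genes that fell in 3xTg-AD mice are set out here by what their products are known to do, an order given after their values were seen and not tested as a theme. No member of the complement, interferon or microglial lists described further on was among them. Ccl27a, a chemokine that attracts T cells to the skin, measured 36.7, 37.1, 38.4 and 42.9 CPM in 3xTg-AD mice and 103, 101, 97.4 and 121 CPM in WT mice. The groups were far apart and each was narrow (log2 difference -1.44 ± 0.11, adjusted p = 1.25e-06). Pglyrp1, a peptidoglycan recognition protein that binds bacterial cell wall, measured 3.87, 4.19, 5.35 and 4.38 CPM against 16.8, 15.3, 12.4 and 14.9 CPM (log2 difference -1.74 ± 0.19, adjusted p = 8.85e-05). Oscar, an activating receptor of osteoclasts and myeloid cells, was listed at 0 in all 3xTg-AD mice and measured 2.27, 2.21, 1.86 and 3.54 CPM in WT mice (adjusted p = 0.000827).

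The next lower genes encode a matrix-type protein, a Golgi enzyme, a growth factor and adhesion molecules. Sbspon, a protein with somatomedin B and thrombospondin domains, measured 9.29, 12.4, 8.90 and 10.3 CPM in 3xTg-AD and 37.8, 29.5, 38.1 and 28.3 CPM in WT mice (log2 difference -1.71 ± 0.16, adjusted p = 1.78e-05). Galnt1, which starts the O-linked glycosylation of proteins in the Golgi, measured 25.0, 27.5, 28.9 and 27.7 CPM against 168, 81.0, 102 and 87.2 CPM, with WT mouse 26 the highest (log2 difference -2.01 ± 0.23, adjusted p = 0.000122). Hbegf, a ligand of the epidermal growth factor receptor, measured 3.01, 3.27, 3.62 and 4.14 CPM against 8.19, 7.63, 7.51 and 6.4 CPM (log2 difference -1.08 ± 0.17, adjusted p = 0.004). None of the 3 genes overlapped between genotypes. Pcdhga3 and Pcdhga11, clustered protocadherins that mediate homophilic recognition between neurons, fell by 1.55 and 1.41 on the log2 scale (adjusted p = 0.00458 and 0.00193), but the members of that cluster share their last exons, so reads there cannot be assigned to 1 member with certainty.

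Further lower genes have varied roles inside the cell. Rbmxl1, an RNA-binding protein related to Rbmx, had the smallest p of the genes that fell. It measured 7.66, 6.79, 6.42 and 7.56 CPM in 3xTg-AD mice against 32.0, 41.2, 41.2 and 35.4 CPM in WT mice, 5.26-fold lower (log2 difference -2.39 ± 0.14, adjusted p = 1.5e-08), and as a close copy of Rbmx it may share reads with that gene. Fancc, a subunit of the Fanconi anemia complex that repairs DNA crosslinks, measured 5.25, 3.18, 2.97 and 4.86 CPM against 12.9, 14.8, 7.43 and 12.1 CPM (log2 difference -1.53 ± 0.24, adjusted p = 0.0031). Rnf121, a ubiquitin ligase of the Golgi and endoplasmic reticulum that was picked out after its values were seen, measured 23.6, 21.4, 24.0 and 20.1 CPM against 242, 356, 542 and 1011 CPM. The 3xTg-AD mice were uniform and the WT mice spread over a wide range, giving a 24.1-fold difference between the means (adjusted p = 0.0254). Pyroxd2, a mitochondrial oxidoreductase-like protein, fell by 2.53 and Zfp874a, a zinc finger protein, by 1.03 on the log2 scale (adjusted p = 0.0105 and 0.0118). Across the 8 fits that left out 1 air mouse, Pyroxd2 was called in 7, Zfp874a in 5 and Rnf121 in 3.

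A few other lower genes were named after their values had been seen. Kcnab3 and Kcns3, accessory subunits of voltage-gated potassium channels, measured 5.73 to 6.59 and 1.98 to 3.1 CPM in 3xTg-AD mice against 9.11 to 18 and 3.73 to 6.36 CPM in WT mice (adjusted p = 0.0253 and 0.0454). Alas1, the rate-limiting enzyme of heme synthesis outside the red cell lineage, measured 32.4 to 37.6 against 42.5 to 50.2 CPM, the smallest called difference (log2 -0.46, adjusted p = 0.0317). Qpctl, a Golgi glutaminyl cyclase, measured 18.2 to 21.6 against 26.6 to 34.2 CPM (adjusted p = 0.0184). Atg4c, a protease of autophagy, measured 17 to 34.6 against 36.1 to 58.5 CPM (adjusted p = 0.0406). In each of these 5 genes the highest 3xTg-AD mouse lay below the lowest WT mouse. Separation of the groups was seen in 72 of the 73 calls and in 4.04% of all genes tested, so it adds nothing to the call. Of the 8 fits that left out 1 air mouse, Qpctl was called in 4. Kcnab3, Alas1 and Atg4c were called in 2 each, and Kcns3 in 1.

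A further group of lower transcripts carries provisional names. Of the 53 lower genes 16 have a Gm or Rik name (30.2%), as has 1 of the 20 higher ones, against 15.6% of all genes tested. Gm17167 measured 0.860, 0.670, 0.412 and 1.11 CPM in 3xTg-AD mice against 114, 55.3, 43.1 and 57.7 CPM in WT mice, 87.3-fold lower (adjusted p = 0.00976). It was called in 5 of the 8 fits that left out 1 air mouse. Among alcohol mice, WT mouse 6 measured 1.33 CPM, near the 0.607 to 1.07 CPM of 3xTg-AD mice, and the other WT mice 46.6 to 109 CPM. The transcript 4933409K07Rik was listed at 0 in all 3xTg-AD mice and measured 10.5, 7.97, 5.83 and 7.36 CPM in WT mice (adjusted p = 1.78e-05). In all, 6 genes were at 0 in every 3xTg-AD mouse, and 3 in every WT mouse.

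**Figure D2:**
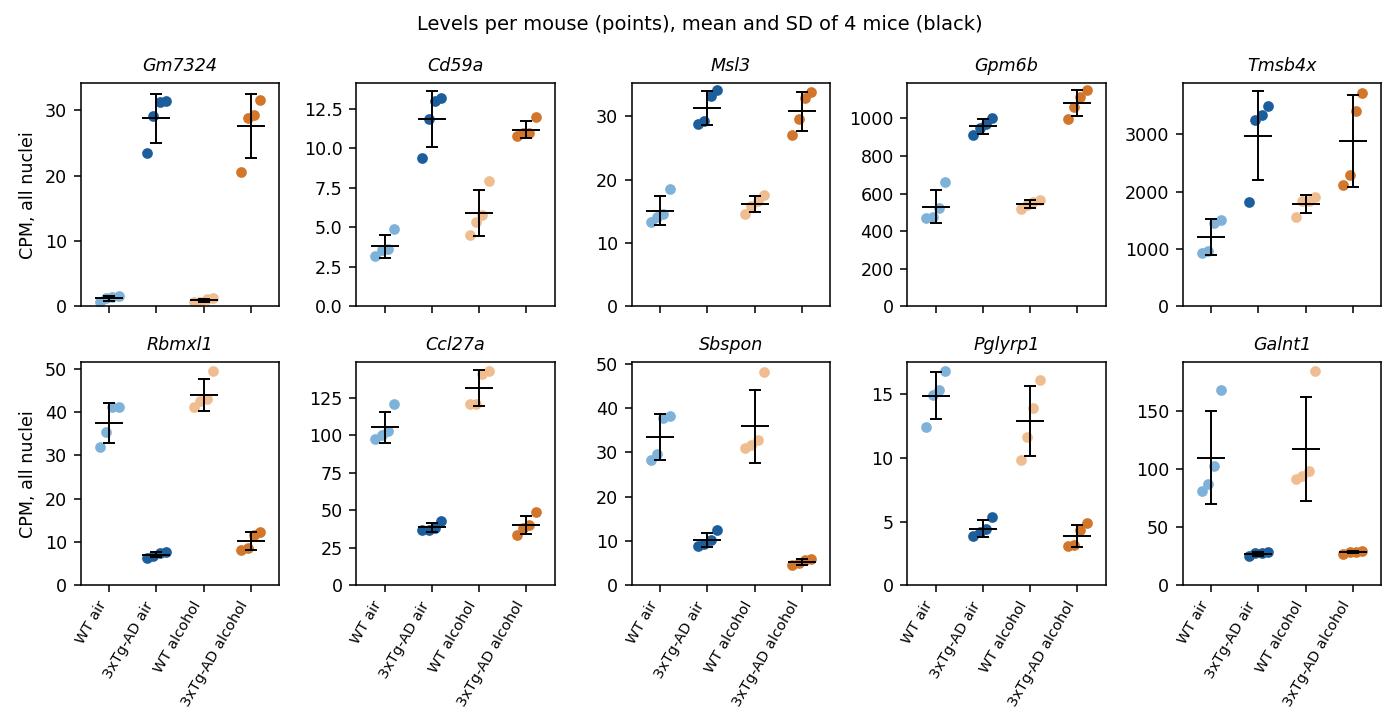
CPM per mouse (points) with the mean and SD of 4 mice (black) for 10 called genes, 5 higher and 5 lower in 3xTg-AD air mice, in the air and the alcohol mice of both genotypes. The genotypes do not overlap in air mice, for example Ccl27a at 36.7 to 42.9 CPM in 3xTg-AD and 97.4 to 121 CPM in WT mice.

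Some calls had other calls near them on the chromosomes. Of the 72 calls with a single position, 36 had another call within 2 Mb, 10 of these in the X-linked stretch, and 15 were next to another called gene among the genes tested. The same shares were not computed for all genes tested, so these counts are not read as clustering. On chromosome 4 at 41 to 43 Mb, Ccl27a was joined by Gm20878, Gm3892, Gm17167 and Gm26881, all lower in 3xTg-AD mice, in a region rich in near-identical gene copies. Gm20878 measured 1.81, 1.34, 1.98 and 1.11 CPM against 6.57, 4.76, 3.98 and 4.16 CPM there (adjusted p = 0.0126). On chromosome 7, Pglyrp1, Ccdc61, Nanos2 and Qpctl were all lower, and Oscar, Rdh13 and Ptprh formed another set, in which Rdh13 was higher and the other two were lower. On chromosome 13 at 67 to 69 Mb, Zfp58 was higher, while Zfp874a, Gm48899, Gm10037 and Gm35161 were lower. The share of tested genes called was 1.94% on the X chromosome, 1.10% on chromosome 18, 1.05% on chromosome 13, 0.946% on chromosome 7 and 0.818% on chromosome 4.

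To see in which cells these differences appeared, nuclei were sorted into classes by the UMIs of fixed marker genes. Names follow those markers and were rebuilt here, so they need not match the study's own. A total of 31.3% of all nuclei stayed unclassed, and their leading genes included Lhx6 and Sst, markers of GABAergic interneurons, so the GABAergic class leaves out part of these cells. The glutamatergic class had a looser rule, taking nuclei with at least 3 glutamatergic marker UMIs in which no other class was a candidate. It had only 1 marker, Arpp21, among its 10 leading genes. A class led by Pde10a, Rgs9 and Drd1, genes of striatal projection neurons, is called the Pde10a-led class. Counts were summed per mouse and class and tested as before in the 8 classes with enough nuclei.

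Glutamatergic neurons, the largest class, had 77 calls of 15473 genes (0.498%), 24 higher (0.155%) and 53 lower (0.343%). GABAergic neurons had 13 of 9529 genes (0.136%), 8 higher (0.084%) and 5 lower (0.0525%), and the Pde10a-led class 9 of 6036 (0.149%), 4 higher (0.0663%) and 5 lower (0.0828%). Astrocytes had 9 of 10075 (0.0893%), 5 higher (0.0496%) and 4 lower (0.0397%), and oligodendrocytes 7 of 6117 (0.114%), 3 higher (0.049%) and 4 lower (0.0654%). Microglia had 6 of 5388 (0.111%), 4 higher (0.0742%) and 2 lower (0.0371%). Oligodendrocyte precursors had 2 of 4211 (0.0475%) and endothelial cells 1 of 1033 (0.0968%), all higher. These classes differ in the number of nuclei and UMIs, so their counts of calls are not compared. The 124 calls concerned 92 genes, of which 63 were also called in all nuclei and 11 were called in more than 1 class.

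RNA of other cells was present in every class. The 7 glutamatergic markers, which include Slc17a7, summed to 2376 to 3006 CPM over the 8 mice in glutamatergic neurons. In the Pde10a-led class they summed to 2209 to 2876 CPM, near the level of the glutamatergic class itself. The sums were 1006 to 1840 CPM in microglia, 1050 to 1863 CPM in oligodendrocytes and 1096 to 1750 CPM in oligodendrocyte precursors. They were 796 to 1273 CPM in astrocytes, 730 to 1343 CPM in endothelial cells and 651 to 1014 CPM in GABAergic neurons. How much of a difference within a class came from such RNA was not tested, so a gene that differed in several classes is not shown to differ in the cells of each.

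Tmsb4x read higher in the nuclei of every class. It was called in 8 of 8, with log2 differences between 1.14 and 1.39, from a level of 660.1 to 1184 CPM in WT mice and 1576 to 2377 CPM in 3xTg-AD mice in the Pde10a-led class up to 4705 to 7795 and 13063 to 14240 CPM in endothelial cells. Gpm6b was called in 7 of 8 classes (0.78 to 1.01), and in endothelial cells it read 0.89 higher without passing the test (adjusted p = 0.31). When WT mouse 26 was left out, no gene was called higher in microglia, so Tmsb4x and Gpm6b were not called there. With at least 5 marker UMIs, 1 gene was called higher in microglia. With no filter on low counts no gene was called in endothelial cells, so Tmsb4x was not called there. Astrocytes had the highest level of Gpm6b, 1869 to 2187 CPM in 3xTg-AD and 981 to 1080 CPM in WT mice. Whichever class was taken, all tested members of the X-linked stretch were higher in 3xTg-AD mice, 14 of 14 in glutamatergic neurons, 12 of 12 in GABAergic neurons, 11 of 11 in astrocytes, 7 of 7 in oligodendrocytes and in microglia, 6 of 6 in the Pde10a-led class, 3 of 3 in oligodendrocyte precursors and 2 of 2 in endothelial cells. The class medians lay between 1.01 and 1.28.

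Ccl27a was lower in the 7 classes in which it was tested and called in 6 of them (log2 differences of -2.09 to -1.17). Galnt1 varied more between classes, from -2.63 in the Pde10a-led class, at 16.9 to 34.3 CPM in 3xTg-AD and 120 to 241 CPM in WT mice, to -0.14 where it was least changed, and was called in 3 of 7. Rbmxl1 was called in 3 of 5 classes, Sbspon in 3 of 3 and Gm7324, higher in 3xTg-AD mice, in 3 of 3. Differences between classes were not tested.

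**Figure D3:**
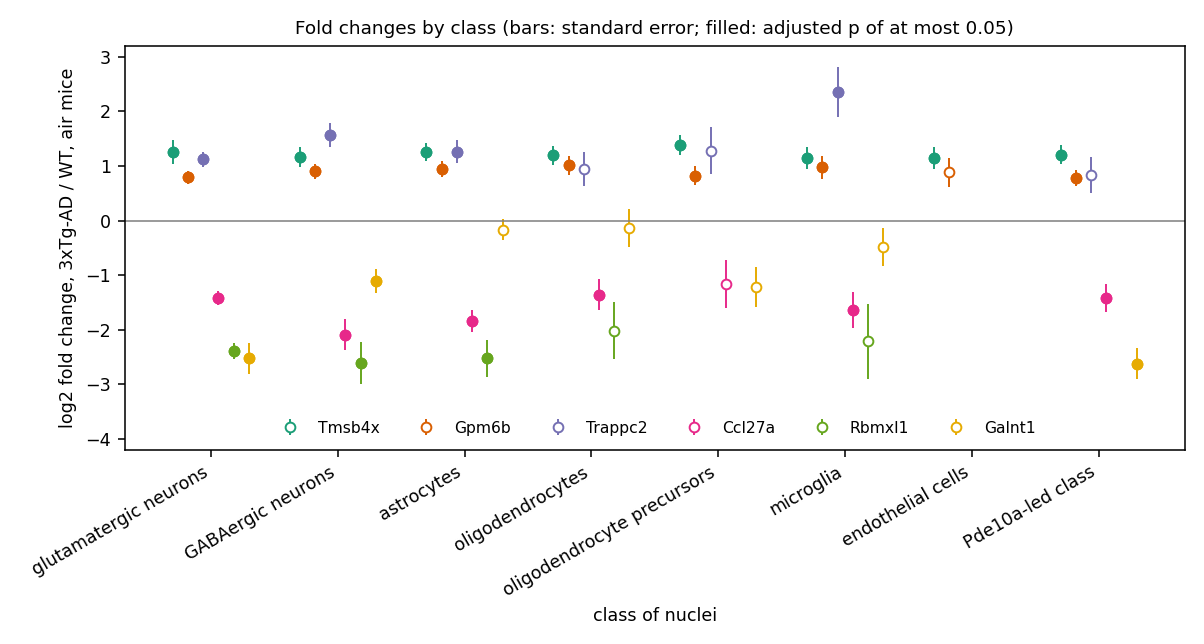
Log2 differences (3xTg-AD minus WT, air mice; bars, SE) of 6 genes called in more than 1 class, by class of nuclei, with 1 point for each class in which the gene was tested. Filled points were called, and Tmsb4x is filled in 8 of 8 classes and Ccl27a in 6 of 7.

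Some calls appeared in a glial class. In astrocytes, Hbegf measured 4.8, 4.18, 7.53 and 4.42 CPM in 3xTg-AD and 43.5, 29.5, 28.7 and 33.3 CPM in WT mice (log2 difference -2.67 ± 0.37, adjusted p = 7.8e-06). In oligodendrocytes, Cdh2, the adhesion molecule N-cadherin, measured 84.3, 92.2, 99.0 and 82.2 CPM against 273, 224, 346 and 477 CPM (log2 difference -1.91 ± 0.24, adjusted p = 5.3e-08), and Zfp14, a zinc finger protein, measured 92.7, 43.0, 61.9 and 64.6 CPM against 2.97, 35.6, 51.9 and 8.30 CPM (log2 difference 2.18, adjusted p = 0.0043). The genotypes were apart for Hbegf and Cdh2 and overlapped for Zfp14. The 11 astrocyte markers summed to 417 to 672 CPM in the oligodendrocyte class of 3xTg-AD mice and 475 to 634 CPM in that of WT mice.

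In microglia, Ccr1 measured 138, 30.8, 55.5 and 64.1 CPM in 3xTg-AD mice and was listed at 0 in the WT mice (adjusted p = 0.0053). This call was lost when WT mouse 26 was left out, where no gene was called higher in microglia. Slc1a3, the glutamate transporter GLAST, measured 168, 144, 189 and 224 CPM in the microglia of 3xTg-AD mice and 805, 757, 782 and 1031 CPM in those of WT mice (log2 difference -2.20 ± 0.22, adjusted p = 2.6e-10). This gene is chiefly expressed by astrocytes and was one of the astrocyte markers of the class rule. The 10 other astrocyte markers summed to 262 to 606 CPM in the microglia of 3xTg-AD mice and 475 to 922 CPM in those of WT mice, with 8 of the 10 lower in the mean in 3xTg-AD mice. Their part in the result was not tested. In the Pde10a-led class, Nnat, the imprinted gene for neuronatin, measured 106, 106, 42.9 and 73.3 CPM against 21.2, 27.4, 35.5 and 38.4 CPM, without overlap (log2 difference 1.5, adjusted p = 0.023).

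The makeup of the tissue, as a share of classed nuclei, gave no class that passed the test. Glutamatergic neurons made up 69.9% ± 1.92 in 3xTg-AD and 66.8% ± 8.08 in WT mice, and astrocytes 11.5% ± 1.88 and 10.4% ± 0.794. GABAergic neurons made up 4.71% ± 0.847 and 8.32% ± 4.94, the WT mean being raised by mouse 27 at 15.7% (exact permutation test, two-sided, p = 0.0857, adjusted p = 0.286 over 10 classes). Microglia made up 3.15% ± 0.863 and 2.40% ± 0.741, and oligodendrocytes 4.17% ± 1.22 and 6.1% ± 3.42 (SD, n = 4 in each case). No class had an adjusted p below 0.286. In this permutation test 4 against 4 mice cannot go below p = 0.0286, so 1 class alone could not pass the correction over 10 classes. The lack of a call therefore does not show that the makeup was alike.

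Gene groups of Alzheimer's disease, glia and synapses were described by their counts, since 23 lists were written with earlier results of these data known. Of all their members, the 1 call was Tmsb4x, in the list of thymosins and actin genes (19 tested). Of all genes tested 0.435% were called, so the lack of a call in lists of 5 to 82 tested genes says little about their members. Amyloid precursor processing had 26 tested members and a median log2 difference of -0.02, and tau and its kinases 25 members and a median of 0.00. In the latter list Gsk3a, a kinase that phosphorylates tau, came nearest to the threshold, at 25.8, 38.0, 41.3 and 37.3 CPM in 3xTg-AD and 54.8, 52.9, 50.9 and 77.2 CPM in WT mice, without overlap (log2 difference -0.73 ± 0.17, adjusted p = 0.0666). The 37 genes at Alzheimer loci had a median of 0.02, and Sorl1, a sorting receptor for the amyloid precursor protein, read -0.36 (adjusted p = 0.18). Disease-associated microglial genes (20 tested) and homeostatic microglial genes (14 tested) had medians of -0.01 and 0.07 in all nuclei. Within the microglia class, where the median of all genes was -0.01 and 49.3% were positive, 0 of 12 disease-associated genes tested there were positive, with a median of -0.31, and 1 of 14 homeostatic genes, with a median of -0.22. None of them was called, and 2 of the former and 0 of the latter had an unadjusted p under 0.05, against 4.32% of all genes in that class. In the same class 0 of 13 mitochondrially encoded genes were positive, with a median of -0.44, and 1 of 5 ribosomal RNA-associated genes, with a median of -0.70, and their part in the result was not tested. In all nuclei these 2 lists had medians of -0.21 and -0.39, with none called, and mitochondrial UMIs made up 0.921% ± 0.230 in 3xTg-AD and 0.968% ± 0.0682 in WT mice (SD, n = 4).

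Antiviral and antigen presentation genes leaned upward without passing the test. Of 40 interferon response genes 35 had a positive log2 difference, with a median of 0.37 and none called, 6 being higher and 2 lower at an unadjusted p under 0.05. Of all genes tested 50.3% had a positive difference, and 3.28% were higher and 4.9% lower at that p. Their summed level was 473, 521, 559 and 479 CPM in 3xTg-AD and 472, 437, 441 and 446 CPM in WT mice, so that the lowest 3xTg-AD mouse lay just above the highest WT mouse. Ifitm2, an interferon-induced membrane protein that restricts virus entry, measured 17.7, 32.6, 24.0 and 29.6 CPM against 4.62, 2.32, 15.6 and 12.8 CPM (log2 difference 1.53 ± 0.54, adjusted p = 0.385). Complement and MHC class I genes were positive in 19 of 20 cases (median 0.47), with 10, all higher, at an unadjusted p under 0.05 (3.28% of all genes) and none called. H2-K1, a classical MHC class I heavy chain, measured 7.83, 13.6, 13.1 and 14.2 CPM against 8.19, 7.08, 5.57 and 7.56 CPM, where 3xTg-AD mouse 12 fell inside the WT range (adjusted p = 0.312).

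Myelin genes leaned the other way. In all nuclei 1 of 20 had a positive log2 difference, with a median of -0.31 and none called, and Opalin, a membrane protein of myelinating oligodendrocytes, measured 3.79, 4.36, 4.04 and 4.14 CPM against 9.40, 7.97, 3.45 and 7.15 CPM (adjusted p = 0.423). Their summed level ran from 619.9 to 789.8 CPM in 3xTg-AD and from 414 to 1001 CPM in WT mice. Within the oligodendrocyte class, 12 of 20 were positive and the median was 0.02, beside the shares of oligodendrocytes given above. GABA and glycine receptor genes had a median of -0.13 over 24 members, in which Gad2, an enzyme of GABA synthesis, measured 67.9, 74.7, 76.7 and 70.1 CPM against 83.7, 109, 86.6 and 86.8 CPM (adjusted p = 0.195), with every 3xTg-AD mouse below every WT mouse. WT mouse 27 was highest for Gad2 and had the most GABAergic nuclei, and the part of these nuclei in the difference was not tested. The summed level of the list was 1904 to 2079 CPM in 3xTg-AD and 2092 to 2298 CPM in WT mice, without overlap, and none of its members was called. Within GABAergic neurons 7 of 22 members were positive, with a median of -0.23, and within glutamatergic neurons 6 of 24, with a median of -0.16.

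Blood and choroid plexus genes, included as a sign of other tissue in the dissection, were positive in 8 of 8 cases, with a median of 0.59 and none called. Ttr, the choroid plexus carrier of thyroxine, stood at 51.5 CPM in 3xTg-AD mouse 21 and at 0.749 to 5.70 CPM in the other 7 mice. Glutamate receptors, presynaptic release genes, chaperones, cytosolic ribosomal proteins and nuclear genes of the respiratory chain had medians between -0.01 and 0.11 and no call. Of these, 64 of 82 respiratory chain genes and 21 of 28 chaperones had a positive difference, as had 16 of 34 glutamate receptor, 21 of 39 presynaptic and 44 of 80 ribosomal protein genes, beside the 50.3% of all genes.

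**Figure D4:**
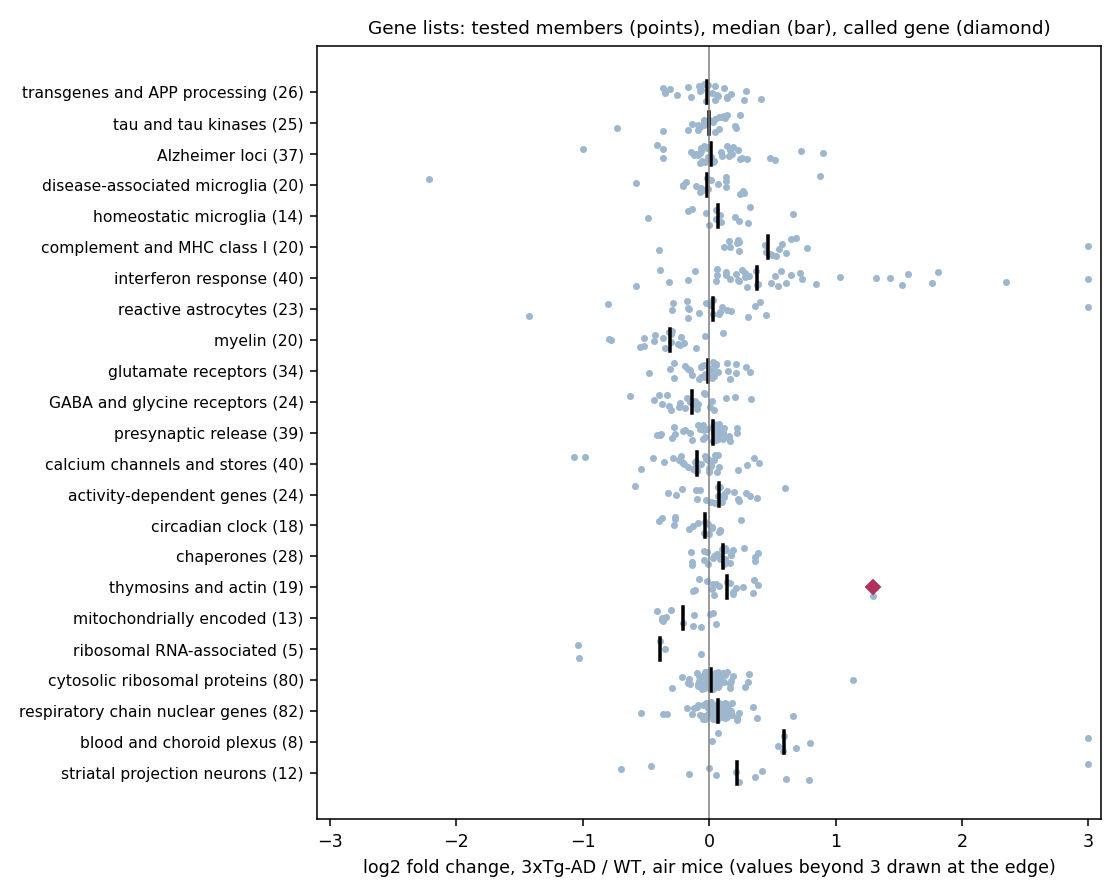
Log2 differences (3xTg-AD minus WT, air mice) of the tested members of 23 gene lists, 1 point per gene with the list median as a bar, values beyond 3 drawn at the edge, and the number tested in brackets. The interferon and complement lists have medians of 0.37 and 0.47, the myelin list has -0.31, and the 1 called gene (diamond) is Tmsb4x.

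The genotype comparison was then set beside that in the 8 mice exposed to alcohol vapor, which are separate animals with their own WT group but enter the same fit. In these, 158 genes were called (0.942%), 77 higher (0.459%) and 81 lower (0.483%). Of the 73 genes called in air mice, 72 had the same direction in alcohol mice, as had 59.01% of all genes tested, and 45 were called there too, which is 61.6% of the 73 and 28.5% of the 158. The median absolute log2 difference of the 73 was 1.44 in air and 1.02 in alcohol mice, the genes having been chosen in the former. The exception was Zfp983, a zinc finger gene, at -0.83 in air and 0.06 in alcohol mice. All 16 genes of the X-linked stretch were again higher, 10 of them called, with a median of 0.90, and with the 2 genes inside Mid1 the median of the 18 was 0.88. Tmsb4x itself read 0.69 higher (adjusted p = 0.169) and Gpm6b 0.99 higher (adjusted p = 0.000128).

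**Figure D5:**
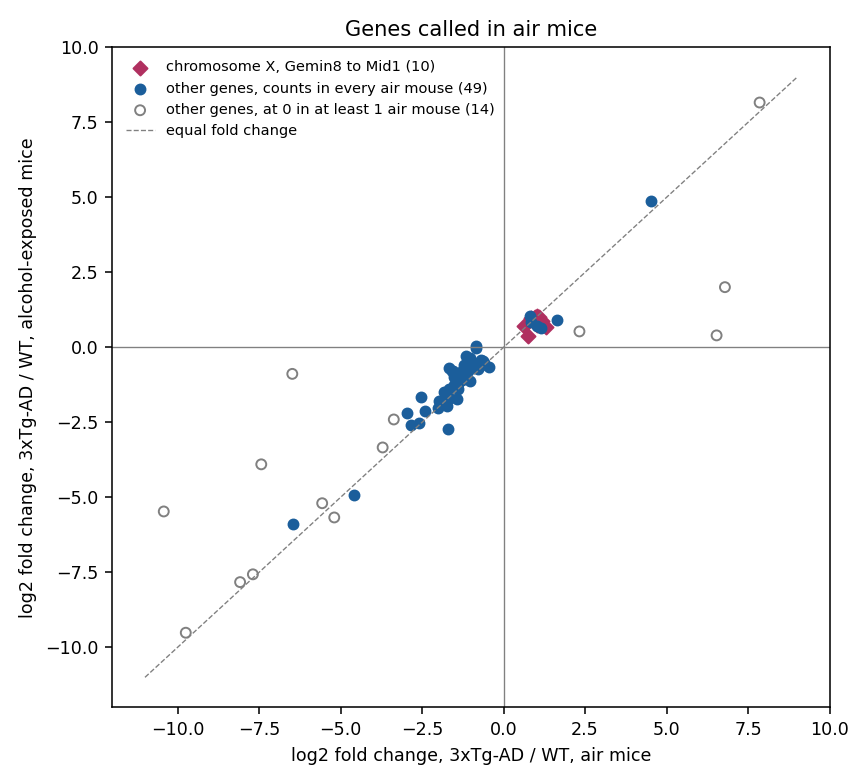
Log2 differences between 3xTg-AD and WT in alcohol mice (y axis) against those in air mice (x axis) for the 73 genes called in air mice, each point 1 gene, with the dashed line marking equal differences, diamonds the 10 X-linked genes and open circles genes at 0 in some air mouse. A total of 72 genes have the same sign in both.

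The difference between the 2 genotype effects was tested as an interaction. No gene was called by edgeR (smallest adjusted p = 0.756, with 583 genes at an unadjusted p under 0.05), and 1 gene, Klk1b22, a kallikrein, by DESeq2. DESeq2 put the difference between the 2 genotype effects of Klk1b22 at 21.6 on the log2 scale, and its edgeR adjusted p was 0.944. This call is therefore not relied on. The 73 genes called in air mice were chosen by a difference that enters the interaction, so their small p-values are not counted. As examples picked after their values were seen, Sbspon had a genotype difference of -1.71 in air and -2.74 in alcohol mice, Cd59a read 1.64 and 0.91, and 9030025P20Rik -0.84 and -0.01. None of these passed the correction.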

How the data were processed

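Single-nucleus RNA-Seq libraries of the PFC of 16 male mice were processed by the authors, and the submitters' processing notes name Cell Ranger 6.1.1, STAR and the genome build mm10. The authors deposited 1 matrix of raw UMI counts of 19999 genes in 114512 nuclei, already filtered for quality, with 216742276 UMIs in all, and each nucleus was assigned to its mouse by the prefix of its column name, with 0 columns left unmapped. Doublets were not called again. Genes seen in fewer than 5 nuclei of a mouse are at 0 there. Counts were summed per mouse over all nuclei, or over the nuclei of a class. A class needed at least 3 marker UMIs, an enrichment of at least 4 and a lead of at least 2 over the next class. The glutamatergic class was assigned differently, with no enrichment or lead required. It took nuclei with at least 3 glutamatergic marker UMIs in which no other class reached its UMI and enrichment limits. The precision of a level is limited by these counts and by 4 mice per group.

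Genes were filtered with filterByExpr, scaled by TMM and fitted in edgeR 4.0.16 by a robust quasi-likelihood fit to all 16 mice with 1 mean per group. The contrast of 3xTg-AD and WT air mice was tested over all genes. DESeq2 1.42.0, other scalings and filters, and fits without single mice served as alternatives. Shares and depth were compared by exact permutation over 70 arrangements. Gene positions come from GENCODE vM21. On simulated data with 16551 genes the test recovered 39% of 1.5-fold, 68.7% of 2-fold and 95.8% of 4-fold changes, and 4.62% of its calls were unchanged genes. The simulated counts were drawn independently for each gene and mouse from the fitted spread, without mice that stand apart. These shares therefore need not hold for the real data.

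Genes were named by rule: up to 15 called genes in each direction by smallest p, names of the Gm and Rik kind being limited to 3 per kind, the genes altered in the line (1 of which is not reported here), called or leading members of the lists, the top 5 called per class, and neighbouring calls. Others are marked as picked after their values were seen. The mice compared, the lists and the markers were chosen with earlier results of these data known.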

Additional observations from a re-analysis of the deposited data

Results flagged for a closer look

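In 18 of 202 groups of 4 mice examined (8.91%), 1 mouse stood apart from the other 3 by Dixon's test at its 95% critical value, and chance alone marks about 1 in 20 groups. 3xTg-AD mouse 12 stood apart in its 5865 nuclei, its 2114 mean UMIs per nucleus, its 2.06% of ribosomal RNA-associated UMIs, its Gm42418 level of 17914 CPM and its 6.0% of oligodendrocytes among classed nuclei. The same mouse was low for Tmsb4x at 1823 CPM and for Cox6c, a subunit of cytochrome c oxidase, at 413 CPM, and high for Lars2, the mitochondrial leucyl-tRNA synthetase, at 1318 CPM and for Gm15758 at 0.516 CPM. WT mouse 27 stood apart in its 15.7% of GABAergic neurons, in Gad2 at 109 CPM, and in Rps13 (294 CPM), Sall1 (15.3 CPM) and Selplg (5.97 CPM). WT mouse 26 was high for Pvalb, a marker of fast-spiking interneurons, at 45.2 CPM and low for Map6, a microtubule-stabilizing protein, at 54.6 CPM. WT mouse 36 was high for Gsk3a at 77.2 CPM, and 3xTg-AD mouse 21 for Ttr at 51.5 CPM. Their part in the comparison was not tested beyond the fits that left out each mouse.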

How the results depend on the processing

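The 73 calls in air mice kept their direction in every alternative fit of all nuclei that tested them (within GABAergic neurons 33 of the 34 tested did), and 30 of the 73 were called again in all 8 fits that left out 1 air mouse, 6 of them in the X-linked stretch. DESeq2 called 200 genes, among them all 73. The count was 48 with the 8 air mice fitted alone (39 of them among the 73) and 48 with a mean of at least 50 counts (all among the 73). It was 45 without the 3 mice with most Gm42418 (34 among the 73). With the ribosomal RNA-associated share as a covariate it was 70 (53 among the 73). Leaving out 1 mouse gave 35 to 105 (35 without 3xTg-AD mouse 13, 39 without 14, 38 without 21). In alcohol mice DESeq2 called 421 genes, and leaving out 1 mouse gave 49 to 151. The interaction gave 1 call in DESeq2 and 0 to 1 without 1 mouse, the 1 without WT alcohol mouse 18. Over the classes, DESeq2 made 201 calls and no filter on low counts 268, and leaving out 1 mouse gave 75 to 157 (76 without 3xTg-AD mouse 13, 75 without 21).

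Some differences that had not passed the test changed sign. Without the 3 mice with most Gm42418, mt-Nd5 read 0.0776, mt-Co1 0.0563, Lars2 0.0305 (-1.04 as reported) and Sall1 0.184, and Lars2 read 0.0417 with the ribosomal RNA-associated share as a covariate. Leaving out 1 mouse gave Lars2 -1.81 (without 3xTg-AD mouse 12) to -0.37 (without WT mouse 26), Sall1 -0.658 to 0.0643 (positive without WT mouse 27), the difference in the share of glutamatergic neurons -0.161 to 6.43 percentage points (negative without WT mouse 27), App -0.106 to 0.0293 (positive without 3xTg-AD mouse 12 or WT mouse 26 or 36) and genes per nucleus -71.2 to 19.8 (positive without WT mouse 36). App read 0.00423 with library size alone. The causes were not tested. No paired analysis was run, because the labels used here give no pair, litter or batch for the mice. Genes of a few CPM rest on few UMIs, and small changes were recovered less often than large ones in simulated data.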
